A study of Mus musculus with 16 samples.

Results

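The contractile program of smooth muscle was followed through 10 genes, Cnn1, Tagln, Lmod1, Smtn, Synpo2, Mrvi1, Csrp1, Csrp2, Des and Tnnt2, out of 26653 genes listed for at least 1 of 3 cell types. They were chosen by name as contractile target genes of serum response factor (SRF), by a rule that uses no measured value but was written with earlier results of these data known. All 10 were listed for embryonic stem cells (ESCs) and embryonic fibroblasts (MEFs), and 9 for kidney fibroblasts (MKFs), where Mrvi1 was not analysed. Total RNA of 16 mouse libraries had been sequenced, 2 in each of 8 groups. ESCs carried a knockout (KO) of Actb, the gene of beta-actin, or lacked the whole Actb locus, or were wild type. MEFs carried a KO of Actg1, the gene of gamma-actin, or lacked the whole Actg1 locus, or were wild type. MKFs carried a KO of Kindlin-2, an integrin activator encoded by Fermt2, and were compared with Kindlin-2 floxed MKFs, whose gene carries recombinase sites around a removable segment. The series asked whether a mutant gene alters the expression of other genes, and with a whole locus deleted no mutant transcript of it should remain. The labels give no strain, age, mutation, clone number or culture conditions for these cells, and no allele shared by all groups. Nor do they state that both libraries of a group derive from independent cultures. The p-values therefore refer to library-to-library spread, which may be technical.

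SRF is a transcription factor that binds a short sequence, the CArG box, near the genes of actins and of proteins that hold, cap or move actin filaments. Its coactivators, the myocardin-related transcription factors, bind monomeric actin and enter the nucleus when that pool shrinks, so that SRF targets are read as a gauge of the actin state of a cell. In smooth muscle the same factor, with myocardin, keeps the contractile genes on. Among the 10 genes, Cnn1 encodes calponin 1 and Tagln transgelin, both actin-binding proteins of the thin filament. Lmod1 encodes leiomodin 1, which starts new actin filaments, Smtn smoothelin and Synpo2 synaptopodin 2, both bound to actin filaments, and Tnnt2 the cardiac troponin T. Csrp1 and Csrp2 encode LIM-domain proteins, Mrvi1 a substrate of cGMP-dependent kinase that restrains calcium release, and Des desmin, the intermediate filament of muscle.

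Promoter sequences from RefSeq (GRCm38.p6) covering 250 bases before to 50 after the annotated start were matched by symbol for 8 of the 10 genes, not for Tagln and Csrp2. Both strands were searched for the CArG box by name. No exact match lay in the promoters of the 8 genes, against 1.63 percent of all 32851 promoters. Some genes have several promoters in that table, and the 8 genes have 11. Up to 1 mismatch was allowed next, and matches then lay in the promoters of 3 genes of the 8, Lmod1, Mrvi1 and Tnnt2, against 23.8 percent of all 27025 genes with a promoter there, or in 3 of the 11 promoters, against 21.1 percent of all promoters. These windows are short, and a match or its lack describes only the letters in them. The 3 genes with near matches are shown first, on GRCm38.p6, with the near CArG boxes in capitals. Exact boxes in the promoters of 2 further genes, Myl9 and Cnn2, follow for comparison, because their RNA rose in both kinds of Actb mutant ESCs. Picked for that rise, they show no link between box and rise, which was not tested. Exact boxes lay in promoters of 5 of 31 further smooth muscle contractile genes, Myl9 among them. They also lay in 1 of 15 paralogues of the members, Cnn2, against 1.81 percent of all genes. Exact boxes were not particular to these lists. They lay in 6 of 25 sarcomere genes of heart and skeletal muscle, and in 2 of 17 genes of SRF, its partners and regulators.
Lmod1, chr1:135324609-135324673, plus strand: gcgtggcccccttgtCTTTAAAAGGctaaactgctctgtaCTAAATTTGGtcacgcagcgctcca
Mrvi1, chr7:110946188-110946225, minus strand: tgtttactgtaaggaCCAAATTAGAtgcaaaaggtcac
Tnnt2, chr1:135836181-135836270, plus strand: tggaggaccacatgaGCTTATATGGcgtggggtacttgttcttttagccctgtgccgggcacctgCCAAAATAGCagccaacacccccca
Myl9, chr2:156775288-156775327, plus strand: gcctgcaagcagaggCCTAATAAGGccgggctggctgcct
Cnn2, chr10:79988529-79988568, plus strand: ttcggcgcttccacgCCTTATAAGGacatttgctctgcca

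On GRCm38 (GENCODE M21) the 10 protein-coding genes lie on 6 chromosomes. Des (chr1:75360329-75368579), Lmod1 (chr1:135324807-135368065), Csrp1 (chr1:135720061-135752232) and Tnnt2 (chr1:135836354-135852260) share chromosome 1 and the plus strand. Cnn1 (chr9:22099216-22109630, plus strand) and Tagln (chr9:45929619-45936058, minus strand) share chromosome 9. Smtn (chr11:3517523-3540612), Synpo2 (chr3:123076519-123236149) and Mrvi1 (chr7:110868266-110982461) lie on minus strands, and Csrp2 (chr10:110919789-110939622) on the plus strand. Tagln shares 1241 of its 1988 exon bases with an antisense gene, AC122273.2 in the deposited symbols. The library kit marks strand, but whether counting used it is not given, so reads of Tagln and of that gene may not be told apart, and Tagln values are uncertain. AC122273.2 itself had 72 and 101 in MEFs without the Actg1 locus, against 40 and 41 in wild-type MEFs. Tagln also shares 108 exon bases with Pcsk7 on the opposite strand, whose mean was 505 over the MEF libraries. Smtn shares 714 of its 4380 exon bases with the opposite-strand gene Gm11946, whose mean was 81.2 there. Mrvi1 (108 bases) and Des (220 bases) share exon bases with antisense genes too. The limit on telling reads apart holds for these genes as well.

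The targeted genes were lower in every mutant library than in its controls. Actb had 23650 and 22707 normalised read counts in Actb KO ESCs, 2372 and 2336 in ESCs without the locus, and 36364 and 34140 in wild-type ESCs. Actg1 had 1004 and 1026 in Actg1 KO MEFs, 25 and 15 in MEFs without the locus, and 5737 and 5672 in wild-type MEFs. Values above 0 thus remained in the libraries labelled as full locus deletions, and "without the locus" follows that label here. Fermt2 had 1251 and 1240 in Kindlin-2 KO MKFs, against 3078 and 3142 in floxed MKFs. A normalised read count is here the deposited value, scaled by the authors within each cell type, so levels are compared only within a cell type. Myh11, the smooth muscle myosin heavy chain, stayed between 4 and 40 in all 16 libraries, and Myocd, the gene of myocardin, was not analysed here.

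Per 1000 exon bases, Csrp1 was the highest of the 10 genes in 7 of the 8 groups. In wild-type MEFs the normalised read count per 1000 bases was 1030 ± 76.3 for Csrp1, 402 ± 27.1 for Smtn, 185 ± 2.84 for Cnn1 and 64.5 ± 4.56 for Csrp2 (SD, n = 2). The other 6 genes of wild-type MEFs stood between 1.34 (Synpo2) and 40.7 (Tagln), and no neighbours in the order overlapped. In wild-type ESCs Csrp1 (276 ± 22.8) and Csrp2 (265 ± 70.0) overlapped at the top (SD, n = 2), followed by Smtn at 71.7 and Des at 28.2 per 1000 bases. The remaining 6 genes were below 6 per 1000 bases there, and from Cnn1 down each overlapped the next. Floxed MKFs had 830 ± 11.2 for Csrp1, 450 ± 3.55 for Smtn and 322 ± 1.30 for Csrp2 (SD, n = 2), with all others at or below 29.8. The order at the top differed between groups of 1 cell type. Smtn stood above Csrp1 in Kindlin-2 KO MKFs, at 1014 ± 88.6 against 635 ± 13.0 per 1000 bases (SD, n = 2), and Cnn1 ranked second in Actg1 KO MEFs, at 795 ± 8.53.

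**Figure D1:**
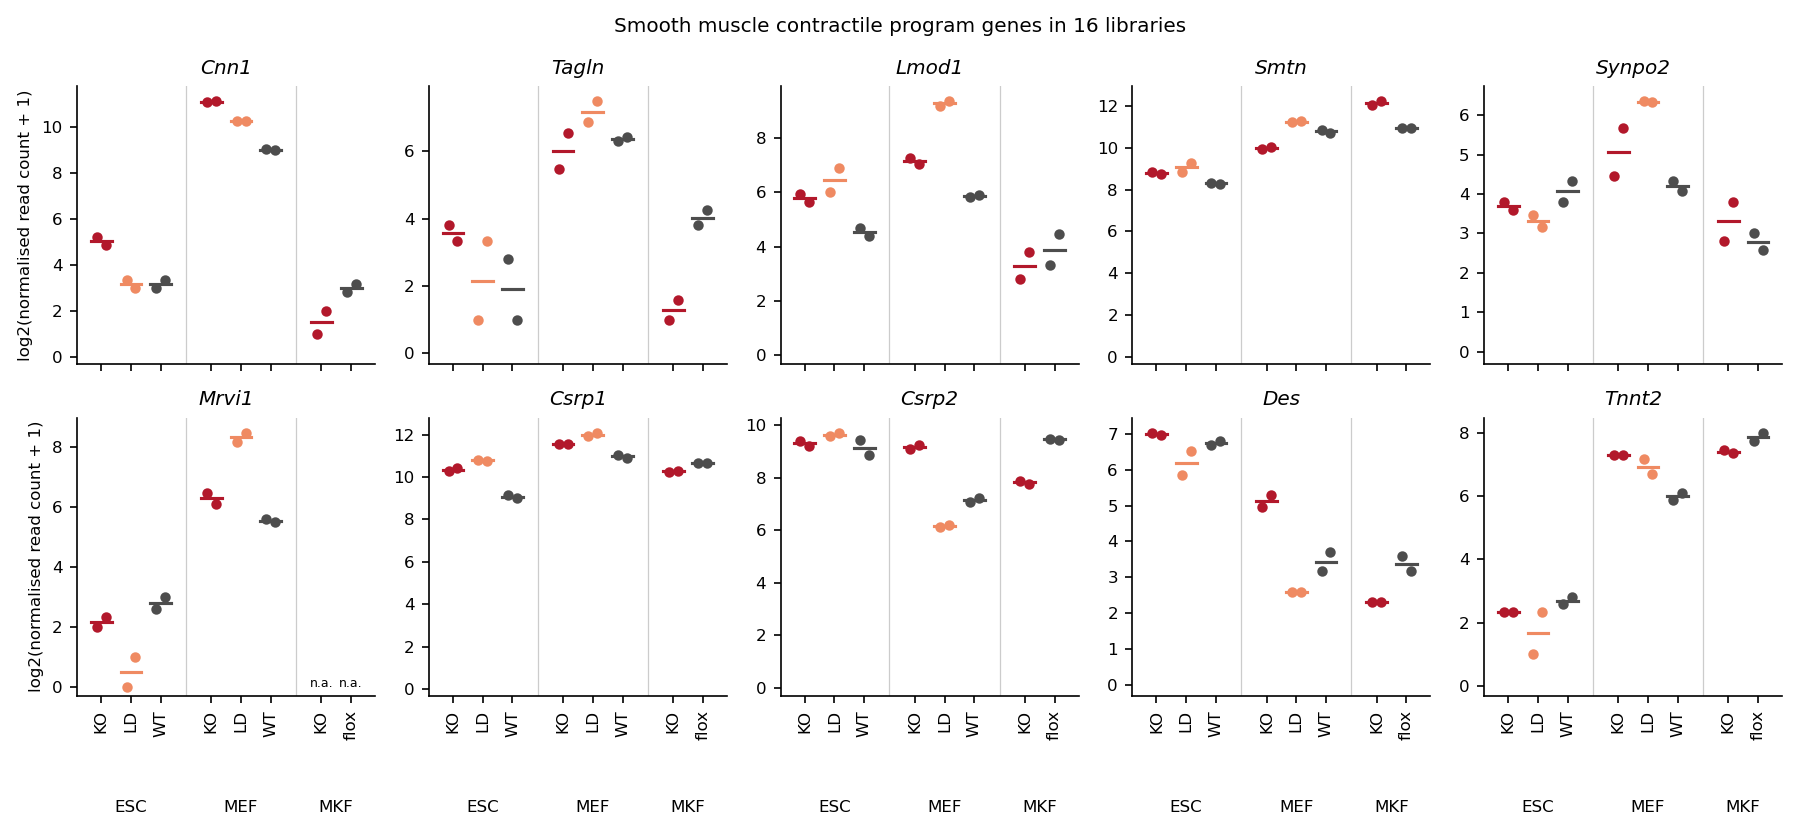
Levels of the 10 genes in 16 libraries, as log2 of the normalised read count plus 1 (vertical axis), by group (KO, knockout; LD, locus deletion; WT, wild type; flox, floxed). Points are libraries and bars the mean of 2, n.a. marks Mrvi1 in MKFs, and heights are not on 1 scale between cell types. Cnn1 in ESCs was high only in the KO libraries, at 36 and 28, and Csrp2 in MEFs was high in the KO libraries, at 543 and 599, and low without the locus, at 68 and 72.

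In Actb KO ESCs the thin filament gene Cnn1 and the LIM gene Csrp1 rose, and no member fell. Cnn1 had 36 and 28 normalised read counts in Actb KO ESCs, 9 and 7 without the locus and 7 and 9 in wild-type ESCs. The KO libraries thus stood apart from the other 4, which overlapped. The log2 fold change of KO over wild type was 1.87 (SE 0.379, adjusted p = 0.0315, limma over 23054 genes), and without the locus it was 0.00 (SE 0.379, adjusted p = 1). The difference between both mutants, KO minus locus deletion, was 1.87 for Cnn1 (adjusted p = 0.0293, limma), the only member called there. Both Cnn1 calls were lost whichever of the 6 ESC libraries was left out, with adjusted p between 0.0846 and 0.294 against wild type and between 0.0866 and 0.29 against the locus deletion.

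Csrp1 had 1230 and 1358 in Actb KO ESCs, 1812 and 1752 without the locus and 571 and 508 in wild-type ESCs. All 4 mutant libraries lay above both wild-type libraries, and the libraries without the locus lay above the KO libraries. Csrp1 rose by 1.26 on the log2 scale in the KO (SE 0.112, adjusted p = 0.00101) and by 1.72 without the locus (SE 0.112, adjusted p = 0.000143, limma). By limma the KO call was lost without KO library 1 (adjusted p = 0.114) or 2 (0.115) or wild-type library 1 (0.0866) or 2 (0.0966), whereas the locus deletion call held with any library left out. For Csrp1 KO minus locus deletion was -0.46 (adjusted p = 0.0546, limma), and 0.0333 with the library number as a block. Csrp2 had 676 and 586 in the KO, 765 and 826 without the locus and 682 and 467 in wild type, and neither difference from wild type passed the test (adjusted p = 0.686 and 0.119, limma).

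Without the Actb locus, Lmod1 and Smtn rose as well as Csrp1. Lmod1, the filament nucleator, had 60 and 49 in Actb KO ESCs, 64 and 118 without the locus and 25 and 20 in wild-type ESCs. Every mutant library was above both wild-type libraries. The log2 fold change was 1.91 without the locus (SE 0.318, adjusted p = 0.00779) and 1.24 in the KO (SE 0.318, adjusted p = 0.0675, and 0.0466 with the library number as a block, limma). Smtn had 454 and 433 in the KO, 449 and 624 without the locus and 321 and 307 in wild type, with a gain on the log2 scale of 0.75 without the locus (SE 0.163, adjusted p = 0.0224) and of 0.50 in the KO (SE 0.163, adjusted p = 0.133, limma). Again no mutant library reached down to the wild-type level. The locus deletion calls of Lmod1 and Smtn were lost when no variance trend was fitted (adjusted p = 0.0681 and 0.128, limma). They were also lost with only the 4 libraries compared (0.0549 and 0.0964). With a library left out, both calls held only without locus deletion library 1. The adjusted p of Lmod1 was 0.0675 and 0.0585 without KO library 1 and 2, 0.0884 without locus deletion library 2, and 0.104 and 0.124 without wild-type library 1 and 2. For Smtn it was 0.109 and 0.1 without KO library 1 and 2, 0.127 without locus deletion library 2, and 0.154 and 0.173 without wild-type library 1 and 2.

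The other 5 members passed no test in ESCs in the fit without pairing. Des had 129 and 123 in Actb KO ESCs, 57 and 90 without the locus and 102 and 110 in wild-type ESCs. The 3 groups did not overlap, with the KO highest and the locus deletion lowest, and KO minus locus deletion was 0.81 on the log2 scale (SE 0.231, adjusted p = 0.0956, limma). Tagln had 13 and 9, 1 and 9, and 6 and 1 in the KO, locus deletion and wild-type libraries, Synpo2 13 and 11, 10 and 8, and 13 and 19, Mrvi1 3 and 4, 0 and 1, and 5 and 7, and Tnnt2 4 and 4, 1 and 4, and 5 and 6. The standard errors of the last 4 genes were 0.393 to 0.888 on the log2 scale. A call needed a difference of several standard errors, so even large changes of these genes could be missed. Mrvi1 without the locus, at -2.29 (SE 0.692), did not pass. Mrvi1, a calcium release regulator, had an adjusted p of 0.0705 without the locus and of 0.0436 with the library number as a block (limma), the lower libraries being those without the locus.

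Counted over all members, 2 of 10 rose in Actb KO ESCs, against 2.44 percent of all 23054 genes tested, and 0 of 10 fell, against 2.44 percent (4.88 percent in either direction). By limma 0 members were lower there at an unadjusted p below 0.05. Without the locus 3 of 10 rose, against 5.19 percent of all genes, and 0 of 10 fell, against 6 percent (11.2 percent in either direction), although Des and Mrvi1 were lower at an unadjusted p below 0.05. Between the mutants, KO minus locus deletion called 1 of 10 higher, against 2.56 percent, and 0 of 10 lower, against 2.32 percent (4.88 percent in either direction), with Csrp1 lower at an unadjusted p below 0.05. The median log2 fold change of the 10 genes was 0.37 in the KO and 0.13 without the locus, against 0.00 and 0.01 over all genes tested. Both mutants were set against the same wild-type libraries. These counts come from the fit without pairing. With the library number as a block, 3 of 10 rose and 0 fell in the KO, 3 rose and 1 fell without the locus, and 1 was higher and 1 lower in KO minus locus deletion. With any 1 ESC library left out, 0 to 1 member rose in the KO, 1 to 3 rose without the locus and 0 were higher in KO minus locus deletion.

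The 8 pluripotent cell markers summed to 42682 to 42867 in the KO, 43485 to 43977 without the locus and 40168 to 41908 in wild-type ESCs, with 0 of 8 called in the KO by limma (2 higher and 1 lower at an unadjusted p below 0.05) and 1 lower without the locus. Fibroblast markers, 7 of 17 of them listed, summed to 21807 to 23485 in the KO, 27969 to 29296 without the locus and 25516 to 26685 in wild type. In the KO 0 of these 7 were called by limma (1 lower at an unadjusted p below 0.05), against 2.44 percent of all genes in each direction. Although their sum without the locus was above wild type, 2 of them were lower there and 0 higher by limma. At an unadjusted p below 0.05 these were 4 and 1, and 6 and 5.19 percent of all genes were called lower and higher. The 6 epithelial markers listed summed to 9566 to 9598 in the KO, 7558 to 7711 without the locus and 12379 to 12859 in wild type. In the KO 2 of them rose and 1 fell, against 2.44 percent of all genes in each direction. Without the locus 3 fell and 0 rose by limma (1 at an unadjusted p below 0.05), against 6 and 5.19 percent. The 2 that rose in the KO, Krt18 and Krt8, keratins of simple epithelia, fell without the locus. Krt18 had 339 and 302 in the KO, 15 and 15 without the locus and 88 and 60 in wild-type ESCs. The KO calls of both keratins were lost without either KO or either wild-type library, with adjusted p between 0.0863 and 0.176 by limma, and those of the locus deletion without wild-type library 1 (0.0593 for Krt18 and 0.0604 for Krt8) and, for Krt8, wild-type library 2 (0.0547). The sums of 6 endoderm markers were 151 to 175 in the KO, 92 to 101 without the locus and 78 to 80 in wild type. In the KO 2 of these rose and 1 fell, against 2.44 percent of all genes in each direction. The part of these markers in the member results was not tested. In bulk libraries fewer cells of a type and less RNA per cell cannot be told apart.

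**Figure D2:**
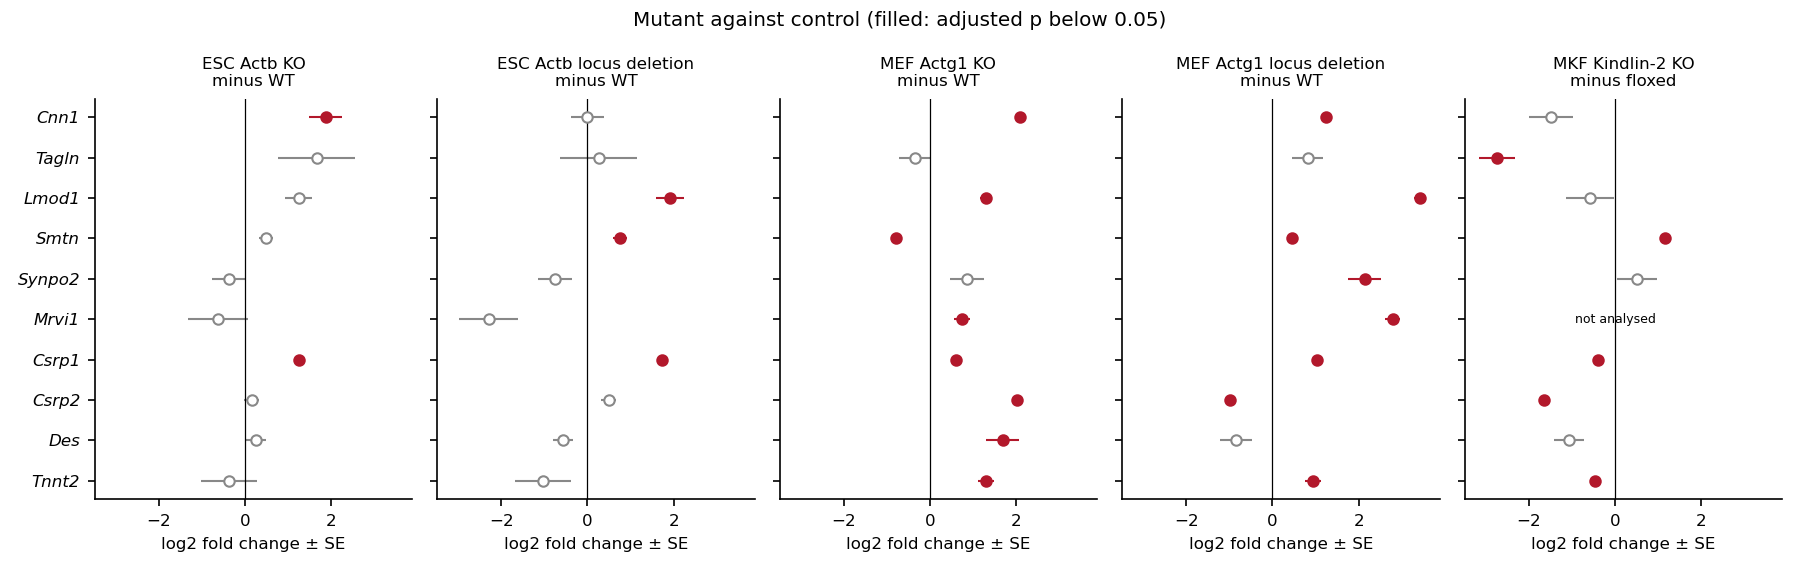
Log2 fold change with its standard error (horizontal axis) of each gene in 5 comparisons of a mutant with its control, 2 libraries a group. Filled points passed an adjusted p of 0.05 by limma. In each MEF mutant 8 of 10 genes are filled, with Synpo2 and Tagln open in the KO and Des and Tagln open without the locus. Smtn lies below 0 in the KO and above 0 without the locus, and Csrp2 the other way.

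In both Actg1 mutants most of the contractile genes rose. In Actg1 KO MEFs 7 of 10 members rose, against 20.6 percent of all 21589 genes tested, and 1 fell, against 19.1 percent (39.7 percent in either direction). Without the Actg1 locus 7 of 10 rose, against 9.46 percent, and 1 fell, against 12.6 percent (22 percent in either direction). The median log2 fold change of the 10 genes was 1.07 in the KO and 0.98 without the locus, against 0.06 and 0.00 over all genes. Both comparisons share the wild-type libraries. KO minus locus deletion called 3 of 10 higher, against 24.5 percent, and 6 lower, against 20.7 percent, so that 9 of the 10 genes differed between both mutants, against 45.2 percent of all genes. With any 1 MEF library left out, 4 to 7 members rose in the KO, 4 to 6 rose without the locus, and 3 to 4 were higher and 3 to 5 lower in KO minus locus deletion.

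Cnn1 had 2158 and 2191 in Actg1 KO MEFs, 1207 and 1214 without the locus and 513 and 502 in wild-type MEFs. The 3 groups did not overlap, with the KO highest. Cnn1 rose by 2.10 (SE 0.0596, adjusted p = 8.55e-07) in the KO and by 1.25 (SE 0.0596, adjusted p = 2.11e-05) without the locus on the log2 scale, and KO minus locus deletion was 0.84 (adjusted p = 2.38e-05, limma). These 3 calls held with any library left out.

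Lmod1 had 152 and 130 in Actg1 KO MEFs, 582 and 650 without the locus and 56 and 58 in wild-type MEFs. Here the locus deletion was highest and the KO lay between, while wild type was lowest as for Cnn1. The gain was 1.29 in the KO (SE 0.129, adjusted p = 0.000176) and 3.41 without the locus (SE 0.129, adjusted p = 1.18e-05), which is a 10.8-fold ratio of means, and KO minus locus deletion was -2.12 (adjusted p = 1.17e-05, limma). Mrvi1 had 88 and 67 in the KO, 289 and 352 without the locus and 47 and 44 in wild type, in the same order as Lmod1. It rose by 0.74 in the KO (SE 0.184, adjusted p = 0.0144) and by 2.78 without the locus (SE 0.184, adjusted p = 8.59e-05), with KO minus locus deletion at -2.04 (adjusted p = 7.77e-05, limma). By limma the KO call of Mrvi1 was lost without KO library 1 (adjusted p = 0.129) or 2 (0.0502) or wild-type library 1 (0.0809) or 2 (0.106). Lmod1 kept its 3 calls, and Mrvi1 the other 2, with any library left out.

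Smtn and Csrp2 went opposite ways in the 2 mutants. Smtn, the smoothelin gene, had 979 and 1056 in Actg1 KO MEFs, 2386 and 2425 without the locus and 1845 and 1677 in wild-type MEFs. Wild type lay between the mutants without overlap. It fell by 0.79 on the log2 scale in the KO (SE 0.0713, adjusted p = 0.000105) and rose by 0.45 without the locus (SE 0.0713, adjusted p = 0.00367), and KO minus locus deletion was -1.24 (adjusted p = 8.97e-06, limma). That gain was lost without wild-type library 2 (adjusted p = 0.0548, limma). Csrp2 had 543 and 599 in the KO, 68 and 72 without the locus and 133 and 147 in wild type. Csrp2 rose by 2.02 in the KO (SE 0.119, adjusted p = 1.55e-05) and fell by 0.99 without the locus (SE 0.119, adjusted p = 0.00114), and KO minus locus deletion was 3.01 (adjusted p = 2.03e-06, limma). All 3 calls of Csrp2 held with any library left out.

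Its relative Csrp1 had 3022 and 3048 in Actg1 KO MEFs, 3921 and 4287 without the locus and 2120 and 1909 in wild-type MEFs. As in ESCs, both mutants lay above wild type and the locus deletion above the KO. Csrp1 rose by 0.59 in the KO (SE 0.0724, adjusted p = 0.000472) and by 1.03 without the locus (SE 0.0724, adjusted p = 0.000108), and KO minus locus deletion was -0.43 (adjusted p = 0.00189, limma). That last call was lost without KO library 1 (adjusted p = 0.0686, limma) or 2 (0.0648). Des, the desmin gene, had 30 and 38 in the KO, 5 and 5 without the locus and 8 and 12 in wild type. It was high in the KO libraries, at 1.68 over wild type on the log2 scale (SE 0.376, adjusted p = 0.00906) and 2.53 over the locus deletion (adjusted p = 0.00103), while the locus deletion libraries stood below wild type but did not pass the test (-0.85, SE 0.376, adjusted p = 0.158, limma). The call against wild type was lost without KO library 1 (adjusted p = 0.0535, limma) or 2 (0.074) or wild-type library 1 (0.0502).

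Tnnt2 had 156 and 155 in Actg1 KO MEFs, 141 and 103 without the locus and 58 and 67 in wild-type MEFs. All mutant libraries were above wild type. It rose by 1.30 in the KO (SE 0.185, adjusted p = 0.000999) and by 0.94 without the locus (SE 0.185, adjusted p = 0.00964), and KO minus locus deletion did not pass (0.36, adjusted p = 0.147, limma) unless locus deletion library 1 was left out (0.0448). The KO call of Tnnt2 was lost without KO library 1 (adjusted p = 0.0575, limma) or 2 (0.0564), and the locus deletion call without KO library 1 (0.0968) or 2 (0.0962), locus deletion library 1 (0.0549) or wild-type library 1 (0.109) or 2 (0.07). Synpo2 had 21 and 50 in the KO, 81 and 79 without the locus and 19 and 16 in wild type. The KO libraries were spread widely and the locus deletion libraries were highest. The gain without the locus was 2.14 (SE 0.388, adjusted p = 0.00677), the KO stood at 0.86 (SE 0.388, adjusted p = 0.118), and KO minus locus deletion was -1.27 (adjusted p = 0.0295, limma). The Synpo2 gain was lost without locus deletion library 1 (adjusted p = 0.0902, limma) or 2 (0.0827) or wild-type library 1 (0.0893) or 2 (0.105), and the KO passed without KO library 1 (0.0323). Its KO minus locus deletion call was lost without KO library 1 (0.11), locus deletion library 1 (0.162) or 2 (0.152) or wild-type library 1 (0.0912) or 2 (0.0899).

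Tagln, often taken as an early smooth muscle marker, had 43 and 92 in Actg1 KO MEFs, 115 and 178 without the locus and 78 and 84 in wild-type MEFs. The KO overlapped wild type (-0.36, adjusted p = 0.466), the locus deletion libraries stood above it but did not pass the test (0.81, SE 0.353, adjusted p = 0.15), and KO minus locus deletion was -1.17 (adjusted p = 0.0284, limma). That call was lost without KO library 1 (0.244), locus deletion library 1 (0.0801) or 2 (0.236) or wild-type library 1 (0.107) or 2 (0.106).

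**Figure D3:**
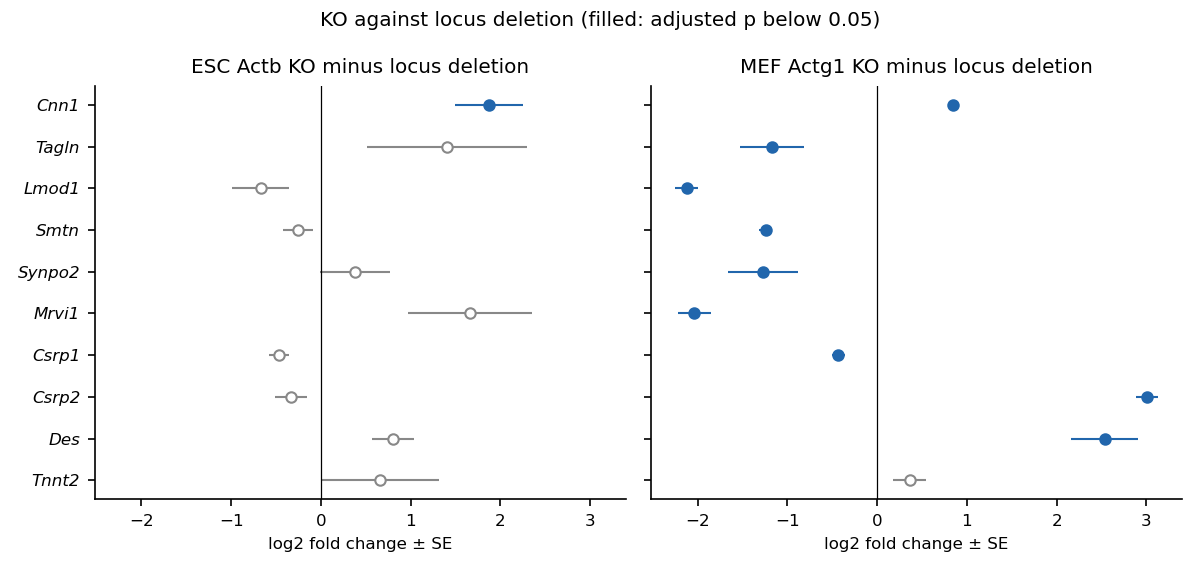
KO minus locus deletion for the 10 genes in ESCs (left) and MEFs (right), as log2 fold change with its standard error on the horizontal axis, 2 libraries a group. Filled points passed an adjusted p of 0.05 by limma. In ESCs Cnn1 alone is filled, and in MEFs Csrp2 (3.01), Des (2.53) and Cnn1 (0.84) lie above 0 and 6 filled genes lie below.

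Markers of other cell types differed between the MEF groups. The 17 fibroblast markers, all listed, summed to 284636 to 299393 in Actg1 KO MEFs, 100173 to 107623 without the locus and 114772 to 125809 in wild-type MEFs. In the KO 9 were higher and 4 lower, against 20.6 and 19.1 percent of all genes. Without the locus 6 were lower and 0 higher by limma, against 12.6 and 9.46 percent, with 1 higher at an unadjusted p below 0.05. Dcn, the decorin gene, had 8037 and 7653 in the KO, 12 and 5 without the locus and 17 and 14 in wild type. Pericyte and mural markers, 7 of 9 listed and Des among them, summed to 4960 to 5213 in the KO, 3107 to 3311 without the locus and 3290 to 3752 in wild type. All 7 rose in the KO, against 20.6 percent of all genes, and without the locus 1 rose and 1 fell, against 9.46 and 12.6 percent. Of 8 pluripotent cell markers 3 were tested in MEFs, with 2 higher and 1 lower in the KO. Sox2 among them, a pluripotency and neural factor, had 1326 and 1306 in the KO, 0 and 0 without the locus and 44 and 32 in wild type. The part of these marker differences in the member results was not tested. Endothelial, epithelial and macrophage markers were scarce, with sums of at most 121, 60 and 89 in any MEF library.

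In Kindlin-2 KO MKFs 1 of 9 members rose, against 24.3 percent of all 18288 genes tested, and 4 fell, against 24.9 percent (49.2 percent in either direction). Smtn had 4169 and 4718 in Kindlin-2 KO MKFs, against 1960 and 1982 in floxed MKFs. It rose by 1.17 (SE 0.0668, adjusted p = 0.000288, limma), without overlap between the groups, and the call was lost without floxed library 1 (0.062) or 2 (0.0613). Csrp2 had 234 and 215 in the KO, against 701 and 697 in floxed MKFs. It fell by 1.64 (SE 0.0682, adjusted p = 0.000142, limma), the one member call that held with any MKF library left out. The related Csrp1 had 1224 and 1260 in the KO, against 1639 and 1608 in floxed MKFs, at -0.39 on the log2 scale (SE 0.0418, adjusted p = 0.00177, limma) that was lost without floxed library 1 (0.0607) or 2 (0.0581).

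Tagln had 1 and 2 in Kindlin-2 KO MKFs, against 13 and 18 in floxed MKFs. The difference on the log2(value + 1) scale was -2.74 (SE 0.411, adjusted p = 0.00517), and Tnnt2, with 174 and 161 in the KO against 210 and 252 in floxed MKFs, stood at -0.46 (SE 0.118, adjusted p = 0.0294, limma). No MKF library could be left out without losing both, with adjusted p between 0.0582 and 0.0871 for Tagln and between 0.0813 and 0.251 for Tnnt2. Cnn1 had 1 and 3 in the KO against 6 and 8 in floxed MKFs (adjusted p = 0.0645), and Des 4 and 4 against 11 and 8 (adjusted p = 0.0593, limma). Both pairs of groups were apart but did not pass the test. Lmod1, at 6 and 13 in the KO against 9 and 21, and Synpo2, at 6 and 13 against 7 and 5, overlapped between the groups. The median log2 fold change of the 9 genes was -0.58, against 0.01 over all genes, and 0 to 1 member rose and 1 to 2 fell with any 1 MKF library left out.

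Markers of epithelium and fibroblasts also differed between the MKF groups. The 8 epithelial markers summed to 25315 to 25661 in Kindlin-2 KO MKFs, against 6163 to 6440 in floxed MKFs, and 7 of 8 rose. Epcam had 3430 and 3401 in the KO, against 26 and 11 in floxed MKFs, a call lost without KO library 1 (adjusted p = 0.0584, limma) or 2 (0.0582). Of 17 fibroblast markers 11 were listed, with sums of 25220 to 29000 in the KO against 56011 to 56262 in floxed MKFs, and 9 of them fell and 2 rose. Pericyte and mural markers, 4 of 9 listed, summed to 220 to 228 in the KO against 280 to 292, with 1 higher and 1 lower. All these counts stand against 24.3 percent of all genes higher and 24.9 percent lower. The part of these differences in the member results was not tested.

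A wider list of 37 further smooth muscle contractile genes was counted in the same way. Of 35 tested in Actb KO ESCs 14 rose and 1 fell, against 2.44 percent of all genes in each direction, and without the locus 18 rose and 4 fell, against 5.19 and 6 percent. With the library number as a block 15 rose and 3 fell in the KO. With any 1 ESC library left out 0 to 10 rose in the KO and 8 to 10 without the locus. Acta2, the smooth muscle alpha-actin, had 1565 and 1631 in the KO, 109 and 134 without the locus and 2 and 9 in wild-type ESCs, and KO minus locus deletion was 3.71 on the log2 scale (SE 0.46, adjusted p = 0.00468, limma). Myl9, a myosin regulatory light chain, had 808 and 862 in the KO, 433 and 541 without the locus and 25 and 26 in wild type. Zyx, the focal adhesion protein zyxin, had 305 and 310, 278 and 344, and 36 and 51 in the same 3 groups. Tpm2, a tropomyosin, had 320 and 333 in the KO, and Itga1, an integrin chain, had 105 and 122 without the locus, against 93 and 58 (Tpm2) and 4 and 5 (Itga1) in wild type. With 1 library left out, Acta2 was not called in the KO against wild type without KO library 1 (adjusted p = 0.114, limma) or 2 (0.0736), nor was Myl9 without KO library 1 (0.0543), and Acta2 was not called against the locus deletion without KO library 1 (0.216) or 2 (0.174) or locus deletion library 1 (0.151) or 2 (0.122). Nor was it called without the locus against wild type when locus deletion library 1 (0.0568) or 2 (0.0617) was left out. The KO calls of Zyx and Tpm2 were lost without either KO or either wild-type library, with adjusted p between 0.0567 and 0.114 for Zyx and between 0.0925 and 0.185 for Tpm2 by limma.

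In MEFs 18 of 35 genes of that list rose and 5 fell in the Actg1 KO, against 20.6 and 19.1 percent of all genes, and 17 rose and 4 fell without the locus, against 9.46 and 12.6 percent. Between the mutants 10 were higher and 14 lower in the KO, against 24.5 and 20.7 percent. With any 1 MEF library left out 11 to 19 rose in the KO and 12 to 16 without the locus, and 6 to 12 were higher and 10 to 15 lower between the mutants. Actg2, the enteric smooth muscle actin, had 4645 and 5064 in the KO, 94 and 98 without the locus and 70 and 92 in wild-type MEFs. Acta2 had 26533 and 28811 in the KO, 52609 and 55623 without the locus and 15819 and 16328 in wild type, and Myl9 had 4248 and 4776, 11770 and 13191, and 3888 and 3881. Acta2 and Myl9 were highest without the locus, as were 6 members, Lmod1, Mrvi1, Smtn, Synpo2, Csrp1 and, without a call against wild type, Tagln, and Actg2 was highest in the KO, as were Cnn1, Csrp2, Des and, without a call between the mutants, Tnnt2. In Kindlin-2 KO MKFs 7 of 32 rose and 11 fell, against 24.3 and 24.9 percent of all genes, and 1 to 5 rose and 4 to 6 fell with any 1 MKF library left out. Tpm1, another tropomyosin, had 8247 and 8465 in the KO against 20535 and 22152 in floxed MKFs, Nexn, the actin-binding nexilin, had 95 and 81 against 321 and 373, and Synm, the intermediate filament protein synemin, had 141 and 123 against 31 and 27. Without floxed library 1 or 2, neither Nexn (adjusted p = 0.0533 and 0.0557, limma) nor Synm (0.0501 and 0.0516) was called.

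**Figure D4:**
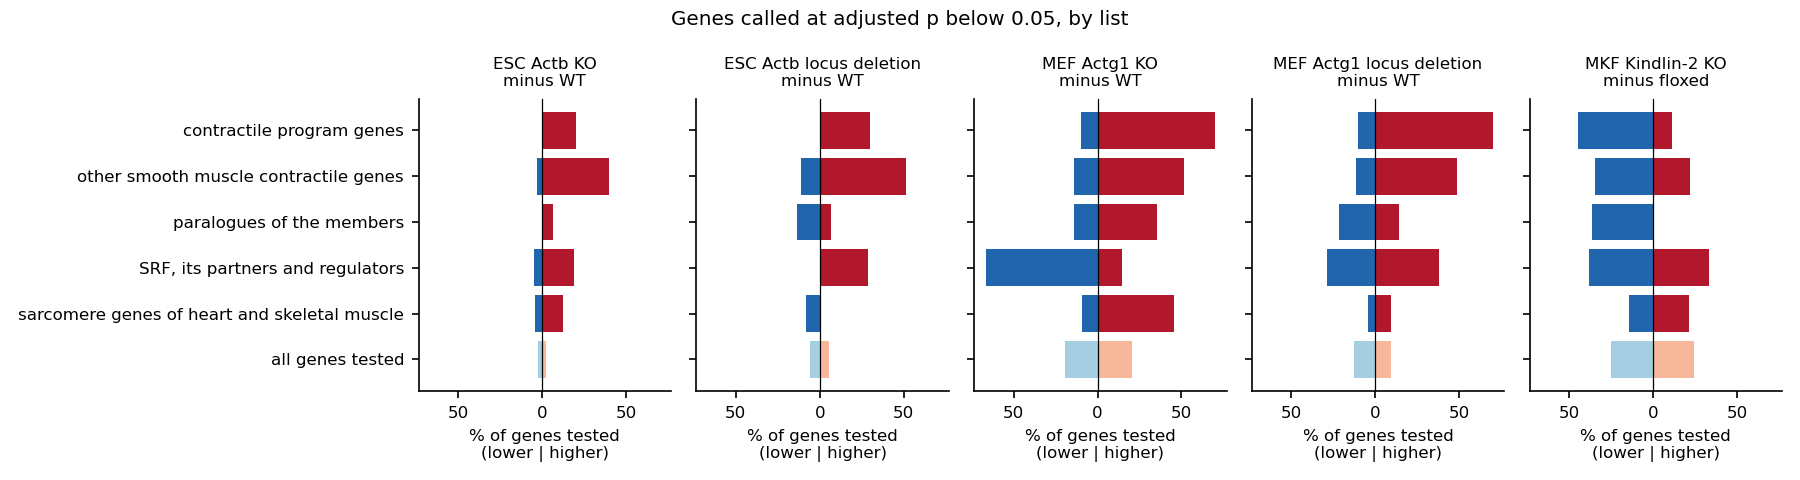
Share of the genes tested in each list that were called higher (right of 0) or lower (left of 0) at an adjusted p of 0.05 by limma, in percent (horizontal axis), for 5 comparisons of a mutant with its control. The lowest bar of each panel is the share among all genes tested, such as 20.6 percent higher and 19.1 percent lower in Actg1 KO MEFs.

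Among 20 paralogues of the members, 1 of 15 tested rose in Actb KO ESCs and 0 fell by limma (3 at an unadjusted p below 0.05), and without the locus 1 rose and 2 fell, counts to be read against 2.44 percent of all genes in each direction in the KO and 5.19 and 6 percent without the locus. With the library number as a block 2 rose in the KO. The riser without it was Cnn2, a calponin of non-muscle cells, with 1591 and 1456 in the KO, 2236 and 1858 without the locus and 291 and 289 in wild-type ESCs, so that both kinds of mutant were above wild type for Cnn2 but the KO alone for Cnn1. Cnn2 was not called between the mutants, and its KO call was lost without KO library 1 (adjusted p = 0.061, limma) or wild-type library 1 (0.073) or 2 (0.059). In Actg1 KO MEFs 5 of 14 rose and 2 fell, against 20.6 and 19.1 percent of all genes, and without the locus 2 rose and 3 fell, near the 9.46 and 12.6 percent of all genes. With any 1 MEF library left out 0 to 4 rose in the KO and 1 to 3 without the locus. Vim, the vimentin gene and a relative of Des, had 41304 and 43759 in the KO, 89417 and 101228 without the locus and 126213 and 129947 in wild-type MEFs. Its call without the locus was lost on leaving out KO library 1 (adjusted p = 0.135, limma) or 2 (0.133) or wild-type library 1 (0.0778) or 2 (0.0907). Synpo, a relative of Synpo2, had 638 and 620 in the KO, 103 and 104 without the locus and 543 and 446 in wild type, whereas Synpo2 was highest without the locus. In Kindlin-2 KO MKFs 0 of 11 rose by limma (0 also at an unadjusted p below 0.05) and 4 fell, against 24.3 and 24.9 percent of all genes, among them Tmod2, a relative of the leiomodins, with 9 and 6 in the KO against 135 and 108 in floxed MKFs, a call lost without floxed library 1 (adjusted p = 0.0593, limma) or 2 (0.0567).

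Srf itself and its regulators formed a list of 25 symbols, of which 21 were tested in each cell type. Mkl1 and Mrtfa in that list name the same gene, as do Mkl2 and Mrtfb. In Actb KO ESCs 4 rose and 1 fell, against 2.44 percent of all genes in each direction, and without the locus 6 rose, against 5.19 percent, and 0 fell by limma (0 also at an unadjusted p below 0.05), against 6 percent. Srf had 711 and 640 in the KO, 883 and 945 without the locus and 321 and 262 in wild-type ESCs, and rose in both. Its KO call was lost without KO library 1 (adjusted p = 0.176, limma) or 2 (0.133) or wild-type library 1 (0.0925) or 2 (0.115). With any 1 ESC library left out, 0 to 1 gene of the list rose in the KO and 1 to 3 without the locus. In MEFs 3 rose and 14 fell in the Actg1 KO, against 20.6 and 19.1 percent of all genes, and 8 rose and 6 fell without the locus, against 9.46 and 12.6 percent, which became 3 to 6 rising and 3 to 6 falling with any 1 MEF library left out. Srf had 1568 and 1660 in the KO, 3794 and 4099 without the locus and 2142 and 1919 in wild-type MEFs, so that KO minus locus deletion was -1.29 on the log2 scale (SE 0.0753, adjusted p = 9.7e-06, limma). Mkl2, one of the genes of the myocardin-related factors, had 1367 and 1406 in the KO, 2927 and 3177 without the locus and 2634 and 2442 in wild type. Mef2c, a muscle transcription factor, had 948 and 834 in the KO, 1 and 0 without the locus and 10 and 16 in wild-type MEFs. In Kindlin-2 KO MKFs 7 rose and 8 fell, against 24.3 and 24.9 percent of all genes. Klf4, which represses smooth muscle genes, had 1158 and 1263 in the KO against 241 and 240 in floxed MKFs.

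Sarcomere genes of heart and skeletal muscle gave 3 higher and 1 lower of 24 tested in Actb KO ESCs, against 2.44 percent of all genes in each direction, and without the locus 0 higher by limma (2 at an unadjusted p below 0.05) and 2 lower, against 5.19 and 6 percent. With the library number as a block 1 was higher without the locus. Ttn, the titin gene, had 26378 and 26414 in the KO, 13205 and 12833 without the locus and 12202 and 12341 in wild-type ESCs, and its KO call was lost without either KO or either wild-type library, with adjusted p between 0.0763 and 0.118 by limma. In Actg1 KO MEFs 10 of 22 rose and 2 fell, against 20.6 and 19.1 percent of all genes, and without the locus 2 rose and 1 fell, against 9.46 and 12.6 percent. With any 1 MEF library left out 4 to 11 rose in the KO. Myh6, a cardiac myosin heavy chain, had 63 and 99 in the KO, 0 and 1 without the locus and 5 and 0 in wild-type MEFs, and Isl1, a heart progenitor factor, had 88 and 100, 0 and 0, and 2 and 3. The Myh6 call in the KO was lost without KO library 1 (adjusted p = 0.0849, limma) or 2 (0.105). Of 13 cardiac and skeletal muscle regulators 3 were tested in MEFs, with 2 higher and 1 lower in the KO, and without the locus 2 lower and 0 higher by limma (0 also at an unadjusted p below 0.05). Of 7 tested in ESCs, Gata4, a factor of heart and endoderm, fell in both mutants, with 8 and 7 in the KO, 10 and 10 without the locus and 34 and 28 in wild-type ESCs. In Kindlin-2 KO MKFs 3 of 14 sarcomere genes rose and 2 fell, against 24.3 and 24.9 percent of all genes.

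Lmod1, Csrp1 and Tnnt2 lie close together, with 351996 bases between Lmod1 and Csrp1 and 84122 between Csrp1 and Tnnt2. All 3 rose in both MEF mutants. Among the 10 other genes between them that were tested in MEFs, 2 rose and 3 fell in the Actg1 KO. Over all genes 20.6 percent rose and 19.1 percent fell there. Without the locus 3 of the 10 fell and 0 rose by limma (0 also at an unadjusted p below 0.05), against 12.6 and 9.46 percent. In ESCs, where Csrp1 rose in both mutants and Lmod1 without the locus, 0 of 11 genes between them rose or fell in either by limma. Over all genes 4.88 percent were called in the KO and 11.2 percent without the locus, so few calls among 11 genes would be usual. At an unadjusted p below 0.05, 1 was lower in the KO and 2 were higher without the locus.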

How the data were processed

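Per the labels' protocols, RNA was prepared with a miRNeasy micro kit and libraries with a stranded SMARTer kit for total RNA. Per the submitters' processing notes, tools were FastQC, STAR 2.5.3a, featureCounts 1.6.0, Subread, DESeq and DESeq2 1.14.1, with the build mm10 (GRCm38). The deposited values of each cell type are a score, judged from the values to be whole numbers left after the authors scaled read counts of genes to a common library size. Because of that they were not tested as counts, and the planned count test was replaced by limma as the plan provided. Values summed to between 16022043 and 16529089 in an ESC library, between 20305511 and 22094490 in a MEF library and between 15565648 and 16324223 in an MKF library, and the gaps between low values put 1 read at 0.714 to 1.297. Genes below a highest value of 4 (ESC, MEF) or 5 (MKF) in a table were not analysed here.

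limma 3.58.1 in R 4.3.3 was run two-sided on log2(value + 1), with group means, all groups of a cell type in 1 fit, a variance trend, genes with a mean of at least 1, and Benjamini-Hochberg adjustment over all genes tested at 0.05. The log2 fold changes understate changes of low genes. All listed members passed the filter. Residual degrees of freedom were 3 (ESC, MEF) and 2 (MKF), and the prior ones 5.4, 4.57 and 2.82. A check on simulated data drew libraries independently and planted changes only in genes with a mean of at least 50. It therefore does not cover lower genes or libraries that deviate together. Library numbers were taken as pairs in ESCs, from the values, because their deviations correlated at 0.678, 0.349 and 0.492 between groups, but the fit as planned has no block, and blocked values stand beside the results they change. Libraries of a group correlated at 0.981 to 0.996 and none was counted as a repeat. With a library left out, its partner was assumed to have the spread of the other groups. Members and the gene lists, written from textbook knowledge, were chosen with earlier results of these data known. All members were named, and from each other list up to 4 genes per comparison, those with the largest change among genes called with a mean of at least 50 in 1 group, and of these the ones that bear on the members are given. Genes outside that rule (Myh11, AC122273.2, Pcsk7, Gm11946, Gata4, Prkg1, Itpr1, Kcnmb1) were named after their values were seen.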

Additional observations from a re-analysis of the deposited data

Results flagged for a closer look

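Both KO and locus deletion of Actg1 were tested against the same wild-type MEFs, and for 2 members the effects had opposite signs, each called, with the difference between the mutants called as well. Smtn had 979 and 1056 in Actg1 KO MEFs, 2386 and 2425 without the locus and 1845 and 1677 in wild-type MEFs, and KO minus locus deletion was -1.24 on the log2 scale. Csrp2 had 543 and 599 in the KO, 68 and 72 without the locus and 133 and 147 in wild type, and KO minus locus deletion was 3.01. Fibroblast markers summed to 284636 to 299393 in the KO, 100173 to 107623 without the locus and 114772 to 125809 in wild type. Of these 17 markers, 9 were higher and 4 lower in the KO by limma, against 20.6 and 19.1 percent of all genes. Without the locus 0 were higher (1 at an unadjusted p below 0.05) and 6 lower, against 9.46 and 12.6 percent. The part of these markers in both results was not tested.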

How the results depend on the processing

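The alternatives were pseudocounts of 0.5 and 5, a minimum mean of 10 or none, TMM rescaling, rescaling without genes over 1 percent of a library, no variance trend, fitting only the 4 libraries compared, a replicate block, and leaving out each library. For members, 604 of the values under settings other than left-out libraries kept direction and call, 19 lost and 6 gained a call, and 0 reversed. Without a trend, members called higher numbered 0 for Actb KO minus locus deletion, 0 for Actb KO, 1 for the Actb locus deletion and 4 for the Actg1 locus deletion. With only the 4 libraries compared they numbered 0, 1 and 1 in the 3 ESC comparisons in that order. Members lower in Actb KO minus locus deletion numbered 1 (Csrp1) with a minimum mean of 10, with the replicate block and with rescaling without genes over 1 percent, and 1 (Mrvi1) without the Actb locus with the replicate block.

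The replicate block raised the calls over all genes in Actb KO against wild type to 921 higher and 929 lower, and in KO minus locus deletion to 909 and 826. In MEFs and MKFs, where library numbers were not taken as pairs, the block changed 1 member call, Tnnt2 in MKFs (adjusted p = 0.0725, limma). Deviations of same-numbered libraries correlated at 0.214, -0.302 and -0.211 in MEFs and -0.0952 in MKFs. Swapping the wild-type MEF numbers, an alternative chosen after seeing the data, left 7 higher and 1 lower, 7 and 1, and 3 and 6 members called.

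With a library left out, members called higher numbered 0 to 1 in Actb KO, 1 to 3 without the Actb locus, 0 to 0 in Actb KO minus locus deletion, 4 to 7 in Actg1 KO, 4 to 6 without the Actg1 locus, 3 to 4 in Actg1 KO minus locus deletion and 0 to 1 in Kindlin-2 KO. Members called lower numbered 3 to 5 in Actg1 KO minus locus deletion and 1 to 2 in Kindlin-2 KO. Directions turned only for uncalled values, Csrp2 in Actb KO (-0.12 to 0.43), Tagln without the Actb locus (-0.90 to 1.42) and Tagln in Actg1 KO (-0.90 to 0.18). The cause of these changes was not tested, other than that fewer libraries leave fewer degrees of freedom. Groups of 2 libraries limit every statement.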

Other observations

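The protein of Mrvi1 works in a complex with the calcium release channel encoded by Itpr1 and the cGMP-dependent kinase encoded by Prkg1, and in MEFs the 3 genes did not move together. Prkg1 had 386 and 363 normalised read counts in Actg1 KO MEFs, 188 and 198 without the locus and 585 and 627 in wild-type MEFs. It fell by 0.69 on the log2 scale in the KO (SE 0.0894, adjusted p = 0.000629) and by 1.65 without the locus (SE 0.0894, adjusted p = 3.5e-05, limma), where Mrvi1 was highest. Itpr1 had 1709 and 1788 in the KO, 2359 and 2386 without the locus and 2525 and 2394 in wild type, and fell in the KO (-0.49, SE 0.059, adjusted p = 0.000433), while without the locus it stood at -0.05 (adjusted p = 0.606, limma).

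Kcnmb1, a smooth muscle potassium channel subunit, had 18 and 11 in Actb KO ESCs and 10 and 9 without the locus, and was listed at 0 and 0 in wild-type ESCs. Fermt2, the gene targeted in MKFs, rose in both Actb mutants, with 6769 and 6662 in the KO, 5797 and 6203 without the locus and 3509 and 3417 in wild-type ESCs (adjusted p = 0.00156 in the KO and 0.00179 without the locus, limma). These genes were picked after their values were seen.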
